A study of Saccharomyces cerevisiae with 12 samples.

Results

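The 32 genes of the budding yeast proteasome and RPN4, the gene of their transcriptional activator, were followed through a shift to low-nitrogen medium in a wild type and in a strain without the G protein alpha subunit Gpa2. They were chosen by name: 14 genes of the 20S core particle, 18 genes of the 19S regulatory particle, and RPN4. All 33 were measured, out of 5656 genes tested, each on the probe set with the highest mean over 12 arrays. The wild type was MLY61 and the deletion strain was MLY132, in which delta gpa2::G418 replaces both copies of GPA2. Both strains are MATa/alpha diploids, and both are ura3-52/ura3-52. Each strain was sampled in YPM, a rich maltose medium, at an OD600 of 1.0, and 2 h after transfer to SLAM. SLAM is a defined medium with 2% maltose, 0.17% yeast nitrogen base and 50 µM ammonium sulfate, and the incubation was at 30 °C. Each of the 4 groups had 3 arrays, which the design text ascribes to triplicate cultures. YPM is rich and SLAM is defined, so the nitrogen source is not their single difference, and the SLAM cells alone were moved between media. The deletion is represented by 1 strain, so that strain and deletion cannot be told apart.

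The 26S proteasome degrades proteins tagged with ubiquitin chains. Its core particle is a barrel of alpha and beta rings, with the proteolytic sites inside on the subunits encoded by PRE3, PUP1 and PRE2. The regulatory particle caps the barrel: its base holds a ring of ATPases, encoded by RPT1 to RPT6, that unfold substrates, and its lid holds Rpn11, the enzyme that removes the ubiquitin chain. Rpn4 is a zinc finger protein that activates proteasome genes through a promoter element they share, and the proteasome itself degrades Rpn4 rapidly, which forms a feedback loop. Gpa2 acts with the receptor Gpr1 upstream of cyclic AMP and protein kinase A, and diploid cells need this branch for full pseudohyphal growth on low ammonium.

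The deposited values were log2 expression values from Affymetrix Yeast S98 arrays. GPA2 read 9.70 to 11.10 in the wild type and 5.14 to 5.60 in the deletion strain, and 10 of 19 haploid-specific and mating-type-specific genes averaged under 5.60; the highest means were 8.49 for MFA2, 8.35 for SAG1 and 8.32 for STE4. Wild-type SLAM replicate 2 and deletion YPM replicate 3 stood apart from their groups on the first principal component of all genes. Their scores were -10.8, against 19.4 and 28.4, and -6.17, against -27.3 and -34.5. Other measures rank the arrays otherwise. The lowest Spearman correlation within the group was 0.897 for deletion SLAM replicates 2 and 3, below the 0.931 of deletion YPM replicate 3. Those SLAM arrays were not counted among the arrays that stood apart. Values are relative to all RNA on an array, so a change in the total RNA of the cells would not be seen. Each array measured a whole culture, so a lower level in every cell and fewer cells with the RNA cannot be told apart. The lowest group mean of any of the 33 genes was 8.13, well above the GPA2 readings in the deletion strain.

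RPN4 rose after transfer of the deletion strain to SLAM. Its log2 values there were 9.68, 9.71 and 10.00, against 8.49, 8.56 and 8.89 in YPM. All 3 SLAM arrays lay above all 3 YPM arrays. The difference was 1.15 ± 0.28 (SE, n = 3 arrays a group), or 2.22-fold, with a 95% interval of 0.55 to 1.76 and limma's adjusted p = 0.00945. It passed under all 23 alternative settings tried, with values from 1.05 to 1.27.

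RPN4 in the wild type read 7.55, 8.53 and 8.30 in YPM and 9.19, 8.70 and 8.48 in SLAM. The groups overlapped, since wild-type SLAM replicate 3 lay below YPM replicate 2, and YPM replicate 1 lay lowest of all 12 arrays. The difference of 0.66 ± 0.28, with a 95% interval of 0.06 to 1.27, did not pass after adjustment (limma's adjusted p = 0.126). The difference between the strains' responses, 0.49 ± 0.39, had an interval from -0.37 to 1.34 and did not pass either (limma's adjusted p = 0.980). Without YPM replicate 1 the wild-type difference was 0.38 and the difference of responses 0.78; without YPM replicate 2 the latter was 0.29. The rise in the deletion strain is therefore not shown to be larger than the wild-type difference.

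**Figure D1:**
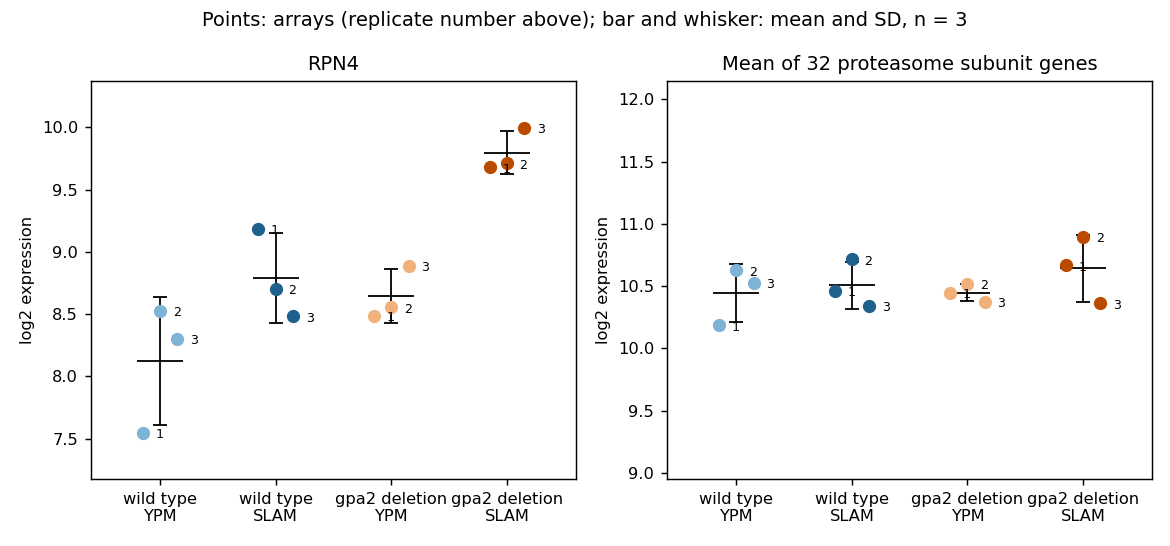
RPN4 and the mean of the 32 subunit genes on each of the 12 arrays, on the log2 scale, by strain and medium, with points for arrays and bars and whiskers for the mean and SD of 3. RPN4 averages 9.80 in the deletion strain in SLAM and between 8.13 and 8.79 in the other groups, while the subunit means of the groups lie between 10.45 and 10.64.

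Few of the subunit genes were called. After transfer of the wild type to SLAM, 0 of the 33 genes passed in either direction, where 5.23% of all genes were called higher and 7.34% lower. At an unadjusted p under 0.05, limma gave 2 of the 33 (PRE3 and RPN4) and 1806 of all genes. The median log2 difference over the 32 subunit genes was 0.03, with a range of -0.34 to 0.45, and 18 of them were above 0. Over all genes the median was -0.05 and 46.8% were above 0. The background in the wild type moved with single arrays: all arrays gave 296 genes called higher and 415 lower. Leaving out YPM replicate 2 left 36 and 26, leaving out YPM replicate 3 left 70 and 83, and leaving out SLAM replicate 3 left 57 and 50. Dropping SLAM replicate 2 raised them to 647 and 767. The count among the 33 was 0 in each of these fits.

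The deletion strain had 2 of the 33 genes called higher after transfer, RPN4 and PRE3, and 0 lower. Among all genes, 13.4% were called higher and 14.8% lower. The subunit median was 0.22, with a range of -0.24 to 0.55 and 25 of 32 above 0. Over all genes the median was 0.01 and 50.8% were above 0. The mean of the 32, taken from the wild-type YPM mean, was 0.22, 0.45 and -0.08 on the deletion SLAM arrays. The subunit genes share these shifts between arrays, so 25 of 32 is not 25 separate results. The 3 SLAM arrays lay above the 3 YPM arrays for 10 of the 33: RPN4, PRE3, RPN1, RPT2, RPN11, RPN5, RPN6, RPN2, RPT6 and PUP2. That order held for 22.9% of all genes. The same order held in the wild type for 1 of the 33, PRE3, and for 15.2% of all genes. The 2 SLAM comparisons use different arrays, but the difference between these counts was not tested.

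**Figure D2:**
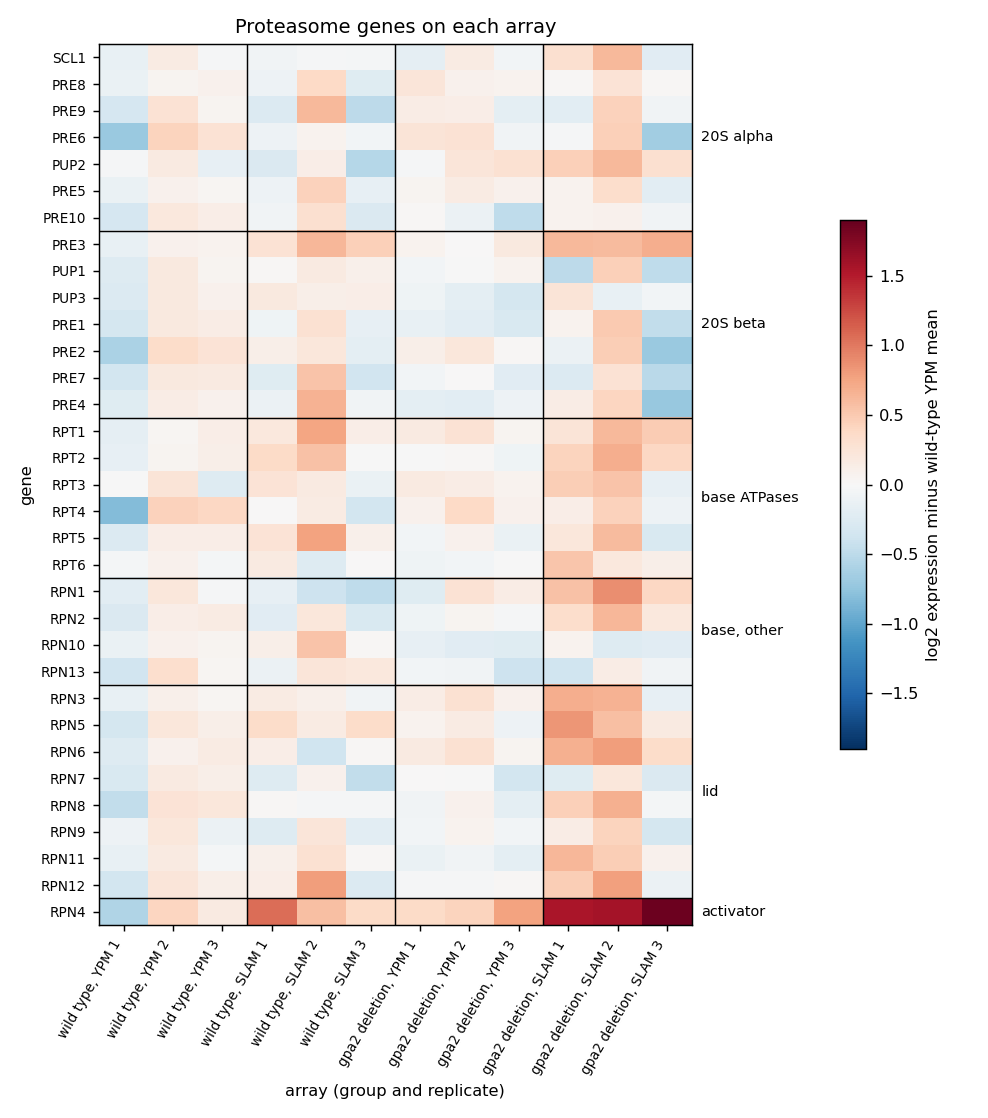
Log2 difference of each of the 33 genes on each of the 12 arrays from the mean of wild-type YPM, with genes in rows by role and arrays in columns by group. Wild-type YPM replicate 1 is low for most subunit genes, and the strongest row is RPN4 in the deletion strain in SLAM, about 1.67 above the wild-type YPM mean.

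The narrow spread of the subunit genes can be put as intervals. The 95% interval of the SLAM difference stayed within 2-fold for 32 of 32 subunit genes in the wild type and for 30 of 32 in the deletion strain. The shares over all genes were 44.9% and 39.7%. The difference itself was under 0.5 log2 for 32 of 32 and for 28 of 32, where the shares over all genes were 56.7% and 50.9%. Both limits were chosen after values were seen. The subunit genes also had a median standard error of 0.23, below the 0.29 of all genes, which narrows their intervals.

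**Figure D3:**
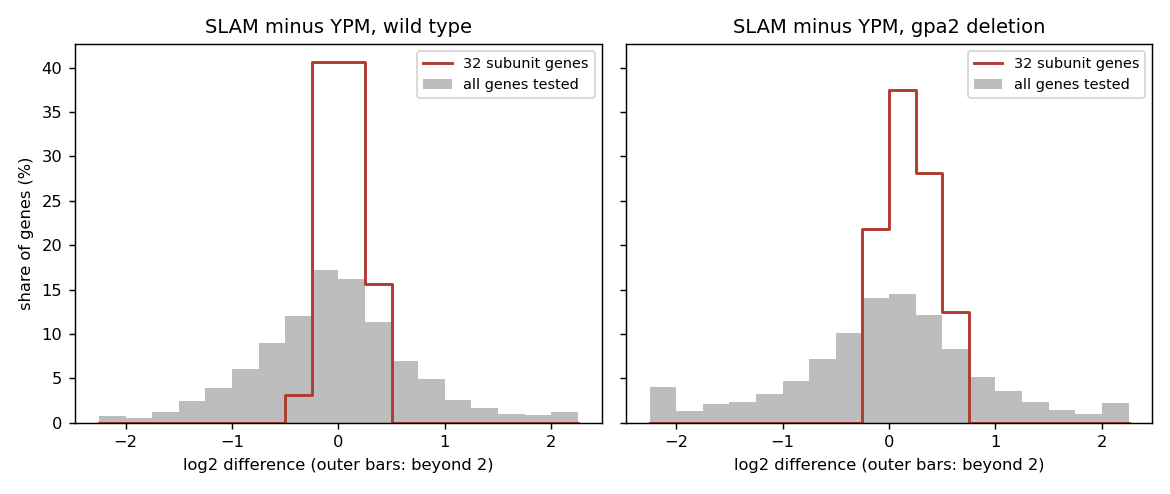
Distribution of the SLAM minus YPM log2 difference over all genes tested and over the 32 subunit genes, as the share of genes (%) in each strain, with all genes beyond 2 pooled in the outer bars. The subunit genes lie between -0.34 and 0.45 in the wild type and between -0.24 and 0.55 in the deletion strain, well inside the distribution over all genes.

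The alpha ring, whose subunits gate entry to the barrel, had median SLAM differences of -0.02 in the wild type and 0.03 in the deletion strain, and 0 of its 7 genes passed. For this and the later role groups, the shares called over all genes were 5.23% higher and 7.34% lower in the wild type. In the deletion strain they were 13.4% and 14.8%. PUP2 (alpha 5) had the largest value of the ring in the deletion strain, 0.30. It read 10.26, 10.51 and 10.57 in YPM and 10.74, 10.90 and 10.59 in SLAM, while the wild type read 10.26, 10.46 and 10.13 in YPM and 10.01, 10.41 and 9.74 in SLAM. The deletion groups did not overlap and the wild-type groups did. PRE8 (alpha 2) had the smallest, -0.02. Its deletion-strain values were 11.45, 11.31 and 11.29 in YPM and 11.26, 11.48 and 11.25 in SLAM, and its wild-type values were 11.11, 11.28 and 11.30 in YPM and 11.13, 11.60 and 11.00 in SLAM. The groups overlapped in both strains. The other 5 genes of the ring (SCL1, PRE9, PRE6, PRE5 and PRE10) lay between -0.23 and 0.26 in the deletion strain.

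In the beta ring, the median differences were 0.10 in both strains and 1 of 7 genes passed, PRE3 in the deletion strain. PRE3 encodes beta 1, the subunit with caspase-like activity. It read 10.82, 10.77 and 10.94 in YPM and 11.38, 11.36 and 11.45 in SLAM there, and the groups were fully apart. The rise was 0.55 ± 0.18, or 1.46-fold, with a 95% interval of 0.16 to 0.94 and limma's adjusted p = 0.0388. This call held in 12 of 23 alternatives. Leaving out any single deletion-strain array ended it, as did leaving out wild-type YPM replicate 2 or 3. Those wild-type arrays are not in this comparison, and without either the difference stayed at 0.55.

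PRE3 in the wild type read 10.61, 10.84 and 10.82 in YPM and 11.03, 11.39 and 11.20 in SLAM. These groups did not overlap either, and the difference of 0.45 ± 0.18 did not pass (limma's adjusted p = 0.109). The difference between the strains' responses was 0.10. The other catalytic subunit genes went without a call: PUP1, which encodes the trypsin-like beta 2, stood at 0.10 in the wild type and -0.18 in the deletion strain, and PRE2, which encodes the chymotrypsin-like beta 5, stood at 0.05 and -0.24. PRE7 (beta 6) had the smallest difference of the ring in the deletion strain, -0.08, from 10.47, 10.53 and 10.30 in YPM and 10.25, 10.80 and 10.01 in SLAM. Its wild-type values were 10.16, 10.70 and 10.69 in YPM and 10.29, 11.06 and 10.15 in SLAM, which overlapped as well. PUP3, PRE1 and PRE4 lay between 0.10 and 0.24 in the deletion strain.

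The base ATPase genes had medians of 0.20 in the wild type and 0.24 in the deletion strain, and 0 of 6 passed. RPT2, whose product helps to open the core's gate, had the largest deletion-strain difference, 0.52 ± 0.20 (limma's adjusted p = 0.0733). It read 8.62, 8.65 and 8.54 in YPM and 9.04, 9.32 and 9.02 in SLAM, with no overlap. Its wild-type values were 8.46, 8.67 and 8.74 in YPM and 8.99, 9.18 and 8.61 in SLAM, a difference of 0.31 with overlapping groups. RPT1 had the smallest p of the ATPase genes in the wild type, at 0.36 (limma's adjusted p = 0.282), from 10.85, 11.05 and 11.15 in YPM and 11.21, 11.76 and 11.14 in SLAM. The deletion strain read 11.19, 11.30 and 11.08 in YPM and 11.26, 11.63 and 11.49 in SLAM. Each pair of groups overlapped. RPT4 had the smallest deletion-strain difference, -0.02, from 9.43, 9.72 and 9.44 in YPM and 9.47, 9.79 and 9.26 in SLAM. Its wild-type YPM values spread widely, at 8.52, 9.78 and 9.75, around the SLAM values of 9.35, 9.51 and 9.01. RPT3, RPT5 and RPT6 lay between 0.15 and 0.33 in the deletion strain.

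Of the 4 genes for the base scaffold and ubiquitin receptors without ATPase activity, 0 passed after transfer to SLAM. Their medians were 0.00 in the wild type and 0.24 in the deletion strain. RPN1, a scaffold that docks shuttle factors, stood at -0.34 in the wild type and 0.55 in the deletion strain (limma's adjusted p = 0.305 and 0.0829). RPN2, the paired scaffold, stood at -0.10 and 0.41. Its wild-type values were 9.94, 10.34 and 10.37 in YPM and 9.99, 10.43 and 9.92 in SLAM. The deletion strain read 10.14, 10.26 and 10.19 in YPM and 10.54, 10.85 and 10.42 in SLAM. The deletion-strain groups were apart and the wild-type groups overlapped. RPN13, a ubiquitin receptor, had the smallest deletion-strain difference, 0.07, from 11.16, 11.14 and 10.82 in YPM and 10.84, 11.35 and 11.14 in SLAM. In the wild type it read 10.85, 11.53 and 11.24 in YPM and 11.09, 11.44 and 11.42 in SLAM, again with overlap.

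The lid genes had a median of 0.02 in the wild type and 0.41 in the deletion strain. There 8 of 8 were above 0, between 0.02 and 0.51, where 50.8% of all genes were above 0. Their mean, taken from the wild-type YPM mean, was 0.46, 0.57 and -0.04 on the deletion SLAM arrays. The lid genes share these shifts between arrays, so 8 of 8 is not 8 separate results. None of the 8 passed in limma, so no lid gene is called changed. RPN11, the lid's deubiquitinating enzyme, was largest at 0.51 ± 0.20 (limma's adjusted p = 0.0757). It read 10.57, 10.62 and 10.51 in YPM and 11.32, 11.16 and 10.77 in SLAM. The groups were apart, with SLAM replicate 3 nearest to YPM, and without that replicate the difference was 0.67 and passed (limma's adjusted p = 0.0305). Wild-type RPN11 read 10.54, 10.87 and 10.66 in YPM and 10.79, 10.98 and 10.71 in SLAM, which overlapped. RPN7 had the smallest deletion-strain difference of the lid, 0.02, from 10.94, 10.93 and 10.58 in YPM and 10.70, 11.14 and 10.66 in SLAM. Its wild-type values of 10.65, 11.11 and 11.04 in YPM and 10.69, 11.02 and 10.46 in SLAM also overlapped. RPN5 and RPN6 were apart at 0.49 and 0.43, and RPN3, RPN8, RPN9 and RPN12 lay between 0.09 and 0.42 with overlap.

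**Figure D4:**
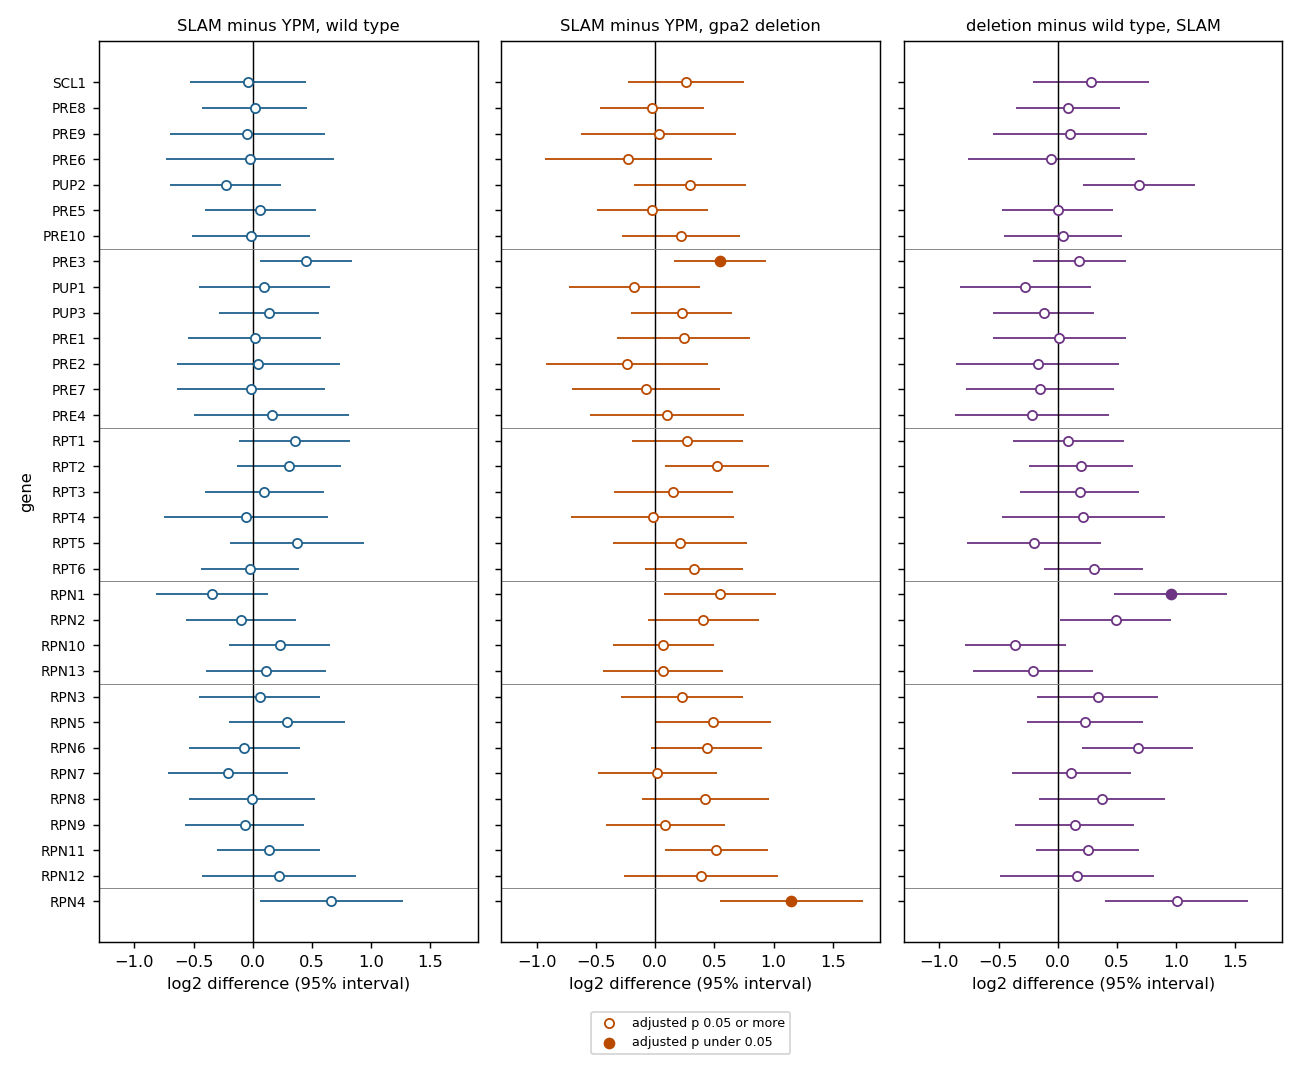
SLAM minus YPM log2 difference with its 95% interval for each of the 33 genes, grouped by role, in the wild type and the deletion strain, and the difference between strains in SLAM in the right panel; filled points passed. The 8 lid genes lie at 0.02 to 0.51 in the deletion strain, around a median of 0.41, and around a median of 0.02 in the wild type. No lid gene passed in either strain.

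Between strains in YPM, 0 of the 33 genes passed in either direction, and 0 had an unadjusted p under 0.05 in limma, where 220 of all genes did. After adjustment 0% of all genes were called higher in the deletion strain and 0.0177% lower, a single gene, GPA2. The subunit median was -0.01 and the range -0.21 to 0.18. RPN4 was 0.52 higher in the deletion strain (limma's adjusted p = 0.994), with overlapping values, and 0.23 higher without wild-type YPM replicate 1. PUP3 (beta 3) stood at -0.21, from 11.51, 11.96 and 11.85 in the wild type and 11.69, 11.59 and 11.43 in the deletion strain. RPN10, a ubiquitin receptor, stood at -0.20, from 11.55, 11.76 and 11.73 against 11.53, 11.47 and 11.44, the 1 gene of the 33 whose groups were apart in YPM. That order, all deletion-strain arrays below all wild-type arrays, held for 13.2% of all genes. In SLAM, PUP3 read 11.95, 11.89 and 11.89 in the wild type and 12.02, 11.64 and 11.73 in the deletion strain, and RPN10 read 11.80, 12.22 and 11.70 against 11.74, 11.44 and 11.47. Both overlapped there.

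In SLAM, 1 of the 33 genes was called higher in the deletion strain than in the wild type, RPN1, and 0 lower. Among all genes 1.08% were called higher and 1.73% lower, 61 and 98 genes; with each array centred on its median these became 83 and 77. These counts also moved with single arrays, to 1 and 3 without deletion SLAM replicate 1, 140 and 51 without wild-type SLAM replicate 1, and 83 and 302 without wild-type SLAM replicate 3. With only the arrays of the comparison they were 0 and 1. RPN1 read 10.25, 10.57 and 10.09 in the deletion strain and 9.54, 9.31 and 9.20 in the wild type. All deletion-strain arrays lay above all wild-type arrays. In YPM the same strains read 9.46, 9.97 and 9.83 against 9.50, 9.91 and 9.67, which overlapped. The SLAM difference was 0.96 ± 0.22, or 1.94-fold, with a 95% interval of 0.48 to 1.43 and limma's adjusted p = 0.0425.

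The RPN1 call held in 9 of 23 alternatives. Leaving out wild-type SLAM replicate 2 or 3, any wild-type YPM array, or replicate 1 or 2 of either deletion group ended it. The YPM arrays are not in this comparison, and leaving 1 of them out kept the difference at 0.96. Without both arrays that stood apart the adjusted p of RPN1 in limma was 0.0801. Over the alternatives its adjusted p ran from 0.0141 to 0.217. RPN1 also had the largest difference between the strains' responses among the 33, 0.89 ± 0.31, with an unadjusted p of 0.0137 in limma and an adjusted p of 0.980. For that comparison 0% of all genes were called higher and 0% lower, and 0 of the 33 passed, with 1 of the 33 and 228 of all genes under an unadjusted p of 0.05.

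Another 3 genes had all deletion-strain SLAM arrays above all wild-type SLAM arrays. They were RPN4 at 1.01 (limma's adjusted p = 0.0658), PUP2 at 0.69 (0.0873) and RPN6, a lid scaffold, at 0.68 (0.0898). With RPN1 this makes 4 of 33, where the order held for 10.8% of all genes. RPN6 read 10.01, 9.51 and 9.90 in wild-type SLAM and 10.56, 10.68 and 10.23 in deletion SLAM, from 9.64, 9.97 and 10.05 and from 10.05, 10.18 and 9.94 in YPM. The subunit median in SLAM was 0.13, against -0.03 over all genes. These comparisons share their SLAM arrays with the comparisons of media above.

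Within each group, many of the subunit genes had their highest or lowest value on the same array. Replicate numbers only name the arrays, in accession order. Of the 32, 29 had their lowest wild-type YPM value on replicate 1 and 26 their highest on replicate 2, where 50.0% and 44.6% of all genes did. Wild-type SLAM had 24 highest on replicate 2 and 21 lowest on replicate 3, against 41.3% and 33.5% of all genes. Deletion YPM had 17 highest on replicate 2 and 20 lowest on replicate 3, against 38.8% and 39.1%. In the deletion strain in SLAM, 25 were highest on replicate 2 and 25 lowest on replicate 3, against 37.8% and 47.8% of all genes. The mean of the 32, taken from the wild-type YPM mean, was 0.22, 0.45 and -0.08 on the 3 deletion SLAM arrays, and for the lid genes 0.46, 0.57 and -0.04. The median over all genes tested was also lowest on replicate 3, at 8.14, 8.16 and 7.98 on these arrays. RPN4 was highest on replicate 3, the array on which the subunit genes were lowest. Group means of the 32 went from 10.45 ± 0.23 (SD, n = 3) in YPM to 10.51 ± 0.19 in SLAM for the wild type. For the deletion strain they went from 10.45 ± 0.07 to 10.64 ± 0.27. The 0.20 between the deletion-strain means was smaller than the SD of the SLAM arrays, but that SD describes single arrays and is not an error of the difference. The difference of these means was not tested. The median over the 33 genes in that strain was 0.10 without SLAM replicate 2 and 0.37 without SLAM replicate 3.

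Among the 33 genes, 31 had a single probe set. PRE3 had 3 and RPT5 had 4. The other PRE3 probe sets, which can share targets with other genes, gave 0.76 and 0.81 in the deletion strain (limma's adjusted p = 0.0219 and 0.0242 in a fit of all probe sets) and 0.14 and 0.41 in the wild type. One of them also stood 1.05 higher in the deletion strain than in the wild type in SLAM (limma's adjusted p = 0.0432 in that fit), where the probe set kept gave 0.18. For RPT5 the probe set kept gave 0.37 in the wild type and 0.21 in the deletion strain. A dim probe set of RPT5 gave 1.53 and 1.32 (limma's adjusted p = 0.0379 and 0.0365 in the fit of all probe sets). Its YPM means of 4.78 and 5.20 lay under the 5.60 read for the deleted GPA2, so the size of these changes is uncertain. The remaining 2 gave 0.33 and 0.12 in the wild type and 0.51 and 0.67 in the deletion strain. The probe sets of RPT5 thus disagreed in size.

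Outside the 33, genes of the wider ubiquitin pathway were described from lists written from general knowledge. The polyubiquitin gene UBI4, which supplies ubiquitin under stress, rose in both strains. It read 9.56, 9.40 and 9.69 in wild-type YPM and 11.46, 11.39 and 11.30 in SLAM, a difference of 1.83 ± 0.20 or 3.56-fold (limma's adjusted p = 0.000689). The deletion strain gave 10.16, 9.98 and 10.57 and then 11.52, 11.56 and 11.66, a difference of 1.35 or 2.54-fold (limma's adjusted p = 0.000912). The groups were apart in each strain, and both calls held in 23 of 23 alternatives. RPS31, which encodes ubiquitin fused to a ribosomal protein, fell by 1.49 in the deletion strain (limma's adjusted p = 0.0168), from 12.23, 12.77 and 12.56 in YPM to 10.36, 10.57 and 12.15 in SLAM. The SLAM arrays split, with replicate 3 near the YPM level, and the call was lost without SLAM replicate 1 or 2 or YPM replicate 2. In the wild type it stood at -0.997 with the groups apart (limma's adjusted p = 0.117), from 12.64, 13.03 and 12.97 to 11.93, 12.29 and 11.44, and passed without deletion SLAM replicate 3. The difference of responses, -0.50, did not pass (limma's adjusted p = 0.988). RPL40A and RPL40B were not analysed here, since no probe set named either gene alone.

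Of 7 genes that regulate RPN4 or the turnover of its product, 1 was called higher in the wild type and 2 in the deletion strain, with 0 lower. The shares over all genes were 5.23% and 13.4% higher, so these few calls are read as single genes. HSF1, the heat shock factor, rose by 0.69 in the wild type (limma's adjusted p = 0.0435, held in 12 of 23 alternatives) and by 0.93 in the deletion strain (0.00525, held in 22). The wild-type call was lost without any wild-type YPM array, wild-type SLAM replicate 1 or 3, or deletion YPM replicate 1 or 2. It read 9.38, 9.35 and 9.51 in wild-type YPM and 10.29, 10.10 and 9.92 in SLAM, and 9.31, 9.45 and 9.31 and then 10.01, 10.27 and 10.59 in the deletion strain, apart in both. YAP1, the oxidative stress regulator, rose by 1.06 in the deletion strain (limma's adjusted p = 0.0166), a call lost without replicate 3 of either deletion group. It read 8.27, 8.36 and 7.93 in YPM and 9.22, 8.94 and 9.57 in SLAM there, and 7.61, 8.54 and 8.36 against 8.89, 8.21 and 8.62 in the wild type, with overlap. The list's medians were 0.29 and 0.33. In the wild type 6 of the 7 were above 0, and UBR2, at -0.85, was not called. It read 7.54, 7.84 and 7.79 in wild-type YPM and 7.36, 6.22 and 7.04 in SLAM, with the groups apart. In the deletion strain UBR2 read 7.85, 7.80 and 7.65 in YPM and 7.28, 8.11 and 7.72 in SLAM, with overlap.

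Of 10 genes for assembly chaperones and the small subunit Sem1, with medians of -0.06 in the wild type and 0.19 in the deletion strain, 0 passed in the wild type, where POC4 had the smallest p (-0.66, limma's adjusted p = 0.0717). In the deletion strain HSM3, a chaperone of the base, rose by 0.70 and POC4, a chaperone of the alpha ring, fell by 1.02. The POC4 call held in 23 of 23 alternatives and the HSM3 call in 12 of 22. HSM3 was lost without any wild-type YPM array, any deletion YPM array, or deletion SLAM replicate 1 or 3. Of 8 activators, inhibitors and associated proteins, with medians of 0.27 and 0.50, 1 was called lower in the wild type, and 2 higher and 1 lower in the deletion strain. Over all genes 7.34% were called lower in the wild type, and 13.4% higher and 14.8% lower in the deletion strain, so 1 of 8 lower lies near the background. CIC1 fell in both strains, by 1.52 in the wild type and by 2.43 in the deletion strain. It read 8.35, 8.61 and 8.43 and then 7.43, 7.24 and 6.16 in the wild type, and 8.22, 8.21 and 7.59 and then 6.02, 4.90 and 5.80 in the deletion strain. The last 3 values average under 5.60, the highest reading of the deleted GPA2, so the size of that change is uncertain. Cic1 is also known as a ribosome assembly factor. In the deletion strain HUL5, a ubiquitin ligase bound to the proteasome, rose by 0.95, and FUB1, a relative of the mammalian proteasome regulator PI31, by 1.46. These calls held in 22 and 14 of 23 alternatives. FUB1 was lost without any wild-type YPM or deletion SLAM array, or deletion YPM replicate 1 or 2, and the wild-type CIC1 call was lost without YPM replicate 2 or 3 or SLAM replicate 3.

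Of 17 genes for ubiquitin activation, conjugation and ligation, 1 was called higher in the wild type, UBC8 at 1.54, and 3 in the deletion strain: UBC8 at 1.84, UBC5, a stress-related conjugating enzyme, at 1.28 and UFD4, a ligase, at 1.04. Both counts lie near the shares over all genes, 5.23% and 13.4% called higher. The medians were 0.07 and 0.37. The UFD4 call held in 14 of 23 alternatives and was lost without any wild-type YPM or deletion YPM array, or deletion SLAM replicate 1 or 3. UBC5 held in 18, lost without replicate 1 or 2 of deletion YPM or replicate 1 or 3 of deletion SLAM, and the wild-type UBC8 call was lost without YPM replicate 2 or 3 or SLAM replicate 1 or 3. Ubc8 is the conjugating enzyme for the turnover of fructose-1,6-bisphosphatase, and its probe set can share targets. Among 10 genes of Cdc48 and the shuttle factors, with medians of 0.08 and 0.36, DDI1, a shuttle protein, rose by 0.81 in the deletion strain (lost without YPM replicate 2 or SLAM replicate 1) and 0 passed in the wild type, where RAD23 had the smallest p (-0.64, limma's adjusted p = 0.0767, and called without SLAM replicate 1). Among 7 deubiquitinase genes, with medians of -0.15 and -0.09, UBP15 rose by 1.20 and YUH1 by 0.60 in the deletion strain, 0 passed in the wild type, where UBP3 had the smallest p at -0.74, and at -0.38 without wild-type SLAM replicate 2. The YUH1 call held in 16 of 22 alternatives and was lost without deletion SLAM replicate 1 or any deletion YPM array. DOA4, which recycles ubiquitin at endosomes, was 1.14 higher in the deletion strain than in the wild type in SLAM (limma's adjusted p = 0.0391, held in 11 of 22 alternatives). The DOA4 call was lost without any wild-type YPM array, wild-type SLAM replicate 2, or replicate 1 or 2 of either deletion group. No gene of these lists passed between strains in YPM or for the difference of responses.

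**Figure D5:**
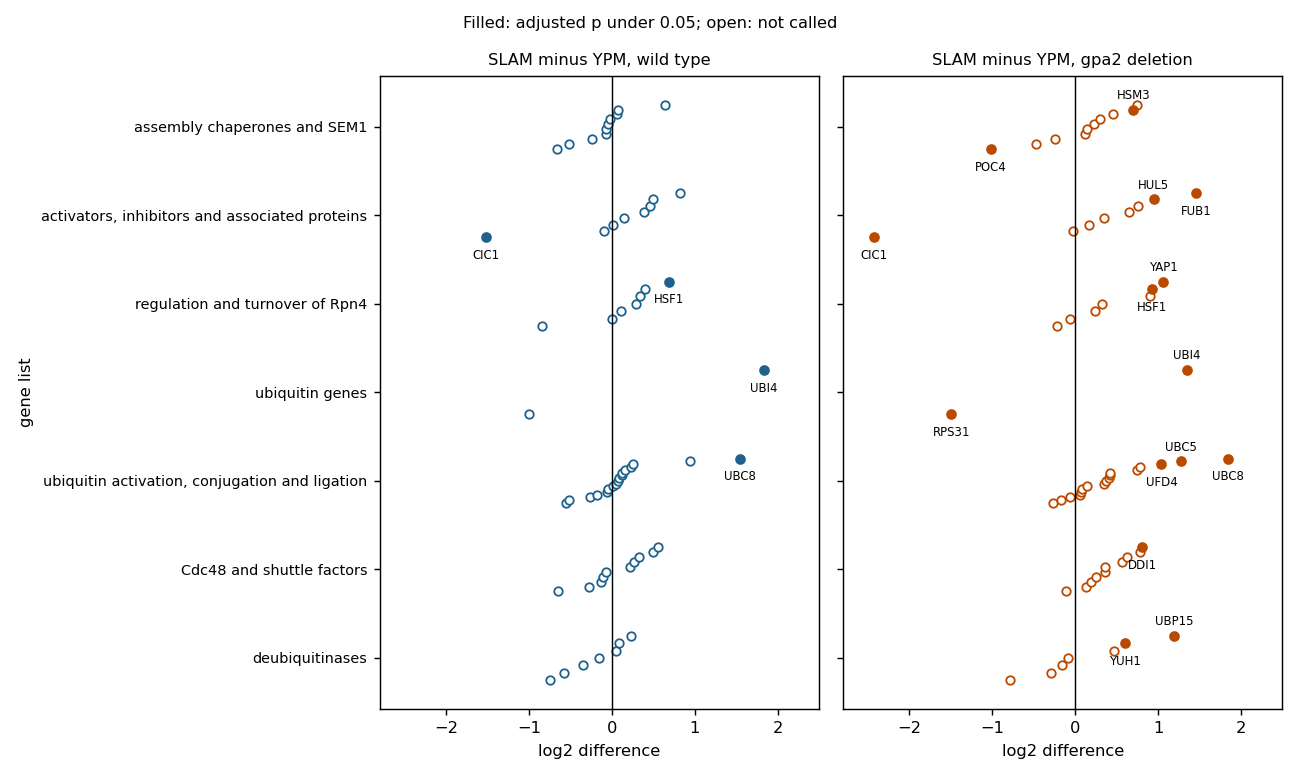
SLAM minus YPM log2 difference of each measured gene of the wider ubiquitin and proteasome lists, in the wild type and in the deletion strain, with filled, named points for genes that passed. UBI4 at 1.83 and 1.35 and CIC1 at -1.52 and -2.43 stand farthest from 0 among the genes that passed in both strains, with UBC8 at 1.54 and 1.84.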

How the data were processed

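RNA from 3 cultures a group was hybridised to 12 arrays. The authors deposited log2 values of 9335 probe sets, complete on all arrays. GCOS 1.2, MAS5 and RMA are named in the submitters' processing notes, with no role given, so the step that made the log2 values is not known. Array medians ran from 7.33 to 7.50 over all probe sets and from 7.98 to 8.28 over the genes tested. The values were used as deposited. After 60 control probe sets, 6504 had 1 gene symbol in the platform annotation, 328 several and 2443 none; the last 2 kinds were left out. All 6504 IDs matched the gene table of assembly R64. Keeping the brightest probe set of each gene left 5656 genes.

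A model with 1 mean per group was fitted with limma 3.58.1 in R 4.3.3 (8 residual degrees of freedom), with two-sided p-values and Benjamini-Hochberg adjustment across the 5656 genes. A gene passed, or was called, at adjusted p < 0.05. Errors are SE unless marked SD. The fit was tested on simulated data in which the noise was independent between genes. Shifts shared by many genes of an array, as seen here, were not simulated, so that test does not cover them. Only 3 arrays a group limit the precision. P-values rest on the spread between cultures, pooled over all 4 groups and moderated by limma across all genes. Leaving out an array outside a comparison can therefore end a call through the error estimate while the difference itself stays the same.

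Array values were given for RPN4, for the largest and smallest deletion-strain difference in each role, and for the 3 smallest p in each comparison; called list genes were named, up to 4 a direction. The array values of RPN6 and of pathway genes were added after values were seen. The genes and lists were chosen with earlier results of these data known, including which arrays stood apart. A planned search of promoter sequences was not run.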

Additional observations from a re-analysis of the deposited data

How the results depend on the processing

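The 23 alternatives covered scaling, probe sets, filters, moderation, weights, thresholds and left-out arrays. None turned the direction of any of the 33 genes in a comparison where its unadjusted p was under 0.05. Counts are of the 33 genes unless stated. In the wild type, array weights called 1 of the 33 higher in place of 0. In the deletion strain the 2 called higher became 5 with each array centred on its median, 15 with array weights, and 1 with only the arrays of the comparison, at adjusted p < 0.01 or at 2-fold; leaving out 1 array gave 1 to 3. Of all 5656 genes, centring called 843 higher there, so 5 of 33 lies near the share over all genes. Array weights called 1812 of all genes higher, the arrays of the comparison alone 711, and the 2-fold limit 500. Between strains in SLAM the 1 called higher became 7 with array weights, and 0 with only the arrays of the comparison, with a variance trend and robust moderation, at adjusted p < 0.01, at 2-fold or without both arrays that stood apart; leaving out 1 array gave 0 to 1. The estimation of the array weights stopped before it reached its tolerance. The lowest weights were 0.15 for wild-type SLAM replicate 2 and 0.29 for deletion SLAM replicate 3. Deletion SLAM replicate 2 had 0.45 and deletion YPM replicate 3 had 0.49. Over all genes, leaving out 1 array gave 36 to 647 called higher and 26 to 767 lower in the wild type, 402 to 976 and 543 to 979 in the deletion strain, and 1 to 140 and 3 to 302 between strains in SLAM. Array weights gave 1086 and 1368, 1812 and 1511, and 469 and 585, and adjusted p < 0.01 gave 43 and 27, 337 and 483, and 1 and 1. With only the arrays of the comparison the wild type had 163 and 213, and without both arrays that stood apart 690 and 835, while the comparison of strains in SLAM then had 34 and 38. Array weights also called 130 and 104 between strains in YPM and 86 and 144 for the difference of responses. Without both arrays that stood apart, RPN4 stood at 1.27 and PRE3 at 0.60 in the deletion strain. No paired analysis was made because the labels give no shared replicate numbers: those used here follow accession order. In the sample titles all deletion-strain arrays are numbered before all wild-type arrays, and YPM and SLAM alternate. What this numbering stands for is not stated. Strain and title order therefore cannot be told apart. The group means of the 33 genes all lay above the GPA2 readings of the deletion strain, and 3 arrays a group limit the precision.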
